A study of Micropterus salmoides with 45 samples.

Results

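The liver of largemouth bass (Micropterus salmoides) was followed over 24 h without food in fish kept at normal oxygen. The 15 control libraries of a series of 45 were chosen by their titles, 3 libraries for each of the times 0, 4, 8, 12 and 24 h. Control fish were 6 months old and were held at 20 °C with dissolved oxygen at 7 mg/L. They shared their age, temperature and fasting with the fish of the other 30 libraries, which were held at 3.0 ± 0.2 mg/L (moderate hypoxia) or 1.2 ± 0.2 mg/L (severe hypoxia), with 3 libraries for each level and time. No strain, sex or transgene is given in the labels. Each oxygen level had 3 tanks of 30 fish, 5 fish were taken from each tank, and the moment at which oxygen had reached its level was called 0 h. No label says if the 3 libraries of one time stem from 3 tanks, 3 fish or fewer, and each p-value below therefore measures only how far these libraries lie apart, which may be technical. Control times were sampled one after the other from the same tanks, so time, order of sampling and repeated handling cannot be told apart.

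The liver of a fish that stops feeding draws on its glycogen, then on stored lipid, and makes glucose for the rest of the body. Genes of gluconeogenesis, fatty acid oxidation and lipid synthesis are known to be set by feeding state, and a set of clock genes is known to follow the time of day. A control course such as this one may carry both, together with whatever differs between single fish. The tables give genes as identifiers of a de novo assembly and do not pair them with names, and no identifier matched the RefSeq gene table of the species. None of these pathways, and none of the markers of hepatocytes or of other cells of the liver, could be looked up, so the labelled tissue was not checked and no function is given for any gene below. In bulk liver, fewer cells of a type and less RNA per cell cannot be told apart.

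The tables listed 2660 genes from 2245 assembly components in RPKM, a read count divided by the length of the gene and by the depth of the library. In the table of control 8 h replicate 2, the last 133 genes are missing. Whole reads could be worked back from the RPKM, and they gave control totals of 29986862 to 33433838 reads. Listed genes took 10.9% to 12.7% of these reads, and the median value rested on 408 reads. The rule by which these genes were listed is not given in the sources used here, so shares below describe the list and not the liver's genes. The median of the gene means in control was 5.24 RPKM, the highest was 4290 RPKM, and 3 genes were at 0 in all 15 libraries.

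One library stood apart from the rest, control 4 h replicate 3. Its root mean square deviation from the mean of its time was 0.771 on the log2(RPKM + 1) scale, against 0.245 to 0.607 in the other 14 control libraries. The second highest was control 4 h replicate 2 at 0.607, and the third control 24 h replicate 1 at 0.461. In control 4 h replicate 3, 691 of 2657 genes (26.0%) were at least 2-fold away from both other libraries of the time in RPKM + 1, with 249 above and 442 below. It also had 122 genes listed at 0, against 24 to 80 in the other control libraries, and 54 of the 122 had reads in every other control library. Those 54 were low genes, with a median of 1.84 RPKM over the other libraries and a highest mean of 8.31 RPKM. Control 4 h replicate 2 had 255 genes (9.6%) so far away, and control 24 h replicate 1 had 219 (8.24%), of which 211 were below both others and 8 above. In control 12 h replicate 1 the number was 14.

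**Figure D1:**
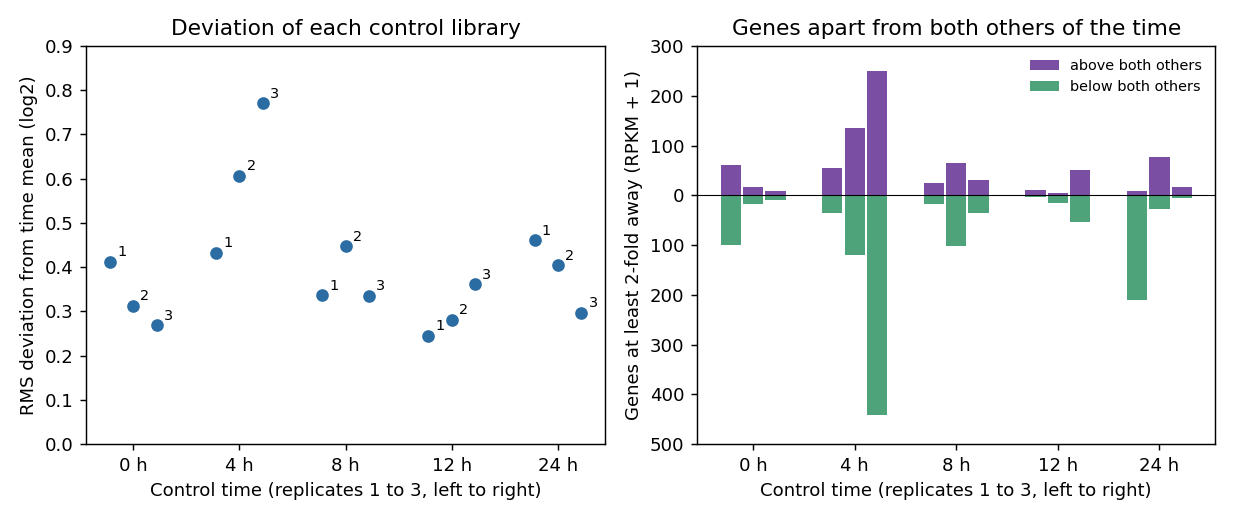
The 15 control libraries by time, with replicates 1 to 3 from left to right. The left panel gives each library's root mean square deviation from the mean of its time over genes (log2 scale), where 4 h replicate 3 is highest at 0.771, and the right panel counts the genes at least 2-fold above or below both other libraries of the time, with 249 above and 442 below in that library.

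Over 24 h of fasting at normal oxygen, no listed gene passed the test for a change with time. Each later time was set against 0 h with limma on log2(RPKM + 1), in a fit of the 15 control libraries with 5 time means, and a gene was called at a Benjamini-Hochberg adjusted p under 0.05. At 4 h, 0 of 2657 genes were called (0.0%), and 142 had an unadjusted p under 0.05. At 8 h limma called 0 genes (0.0%, 103 at an unadjusted p under 0.05), at 12 h 0 genes (0.0%, 217 unadjusted) and at 24 h 0 genes (0.0%, 93 unadjusted). The linear trend over hours gave 0 calls (0.0%, 154 unadjusted), and the F-test for any difference among the 5 times gave 0 calls (0.0%, 131 unadjusted). limma-voom on the whole reads also called 0 genes in each of these 6 tests. The share of genes with an unadjusted p under 0.05 was 5.34% (4 h), 3.88% (8 h), 8.17% (12 h), 3.5% (24 h) and 5.8% (trend). The median F over genes was 1.07. In 46.9% of genes the 5 time means differed by less than the spread of the libraries would give. What genes without a change would give was not worked out, so neither value shows an absence of change. The unadjusted numbers depended on the libraries fitted. In fits of only the 6 compared libraries they were 74 (4 h), 206 (8 h), 527 (12 h) and 172 (24 h), with 0 called (limma). At 12 h the number was 397 without the 4 h libraries, again with 0 called.

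The precision of these comparisons left room for changes that would not be called. The median gene's 95% interval reached 0.725 to either side of its change in log2(RPKM + 1) at 4, 12 and 24 h and 0.73 at 8 h. The fit pooled each gene's variance over all control times, so these widths do not follow the spread at each time. The median SD among libraries of a time was 0.55 at 4 h and 0.252 at 12 h. At 24 h, the interval lay within a 2-fold change of RPKM + 1 in both directions for 1233 genes (46.4%). Being in RPKM + 1, this does not bound the fold change of low genes, and genes with no reads at both times count among the 1233. The number was 1263 genes at 4 h, 1287 at 8 h and 1119 at 12 h. For the remaining genes the interval of 3 libraries against 3 included a change of 2-fold or more in RPKM + 1.

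The same test over the same hours called many of the listed genes in hypoxia. Whether the unknown rule of listing favoured genes that respond to hypoxia could not be checked. In fits of 15 libraries each, 24 h against 0 h gave 332 of 2640 called genes (12.6%) in moderate hypoxia and 1551 of 2659 (58.3%) in severe hypoxia. At 12 h severe hypoxia had 1391 called genes and moderate hypoxia 0 (limma, 285 at an unadjusted p under 0.05). The difference itself was tested in a fit of all 45 libraries. Each change was taken from 0 h of its own level, when oxygen in hypoxia was already low. The levels therefore need not share a starting point. The 24 h change in control differed from that in severe hypoxia for 898 of 2660 genes (33.8%, limma), of which 243 had the higher change in control and 655 the lower one. Scaling the libraries to one distribution left 768 calls and moved that split to 348 higher and 420 lower. Against moderate hypoxia the 24 h change in control differed for 107 genes (4.02%, limma), 37 higher and 70 lower. Leaving out control 24 h replicate 1 brought that count to 11, and leaving out moderate 24 h replicate 2 brought it to 18. It was 25 when control 0 h replicate 1 was dropped and 223 when control 4 h replicate 3 was dropped. The number of genes that set control apart from moderate hypoxia over 24 h thus changed widely with the libraries fitted. Each such fit also has fewer libraries, and why the count moved was not tested.

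**Figure D2:**
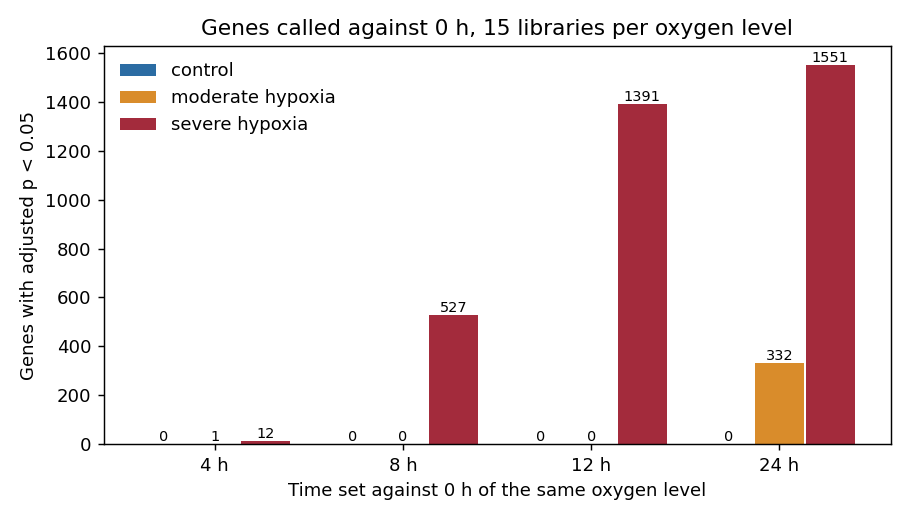
Genes called at an adjusted p under 0.05 (limma) for 4, 8, 12 and 24 h, each against 0 h of the same oxygen level, in fits of 15 libraries per level. Control has 0 calls at each time, moderate hypoxia 332 at 24 h, and severe hypoxia 12, 527, 1391 and 1551 from 4 to 24 h.

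The genes closest to a call with time were low ones. Each was picked by its p-value among all genes tested, so a lack of overlap between its times is partly set by that choice. At 4 h and 24 h the smallest p belonged to c87776_g6. It had 2.38, 0.569 and 1.64 RPKM at 0 h, 0.121, 0.0315 and 0 RPKM at 4 h, and 0, 0.611 and 0.0923 RPKM at 24 h. Every 4 h library lay below every 0 h library, whereas 24 h and 0 h overlapped. The log2 change at 4 h against 0 h was -1.20 (SE 0.256, adjusted p = 0.862, limma), and at 24 h it was -1.0 (SE 0.256, adjusted p = 0.844). With a pseudocount of 0.1 these were -3.32 and -2.57, and with voom -4.84 and -3.73, none of them called. Without control 0 h replicate 2, its change at 4 h was -1.51 and passed the test (adjusted p = 0.0436, limma).

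The gene c75506_g1 had the smallest p at 8 h and in the F-test. Its values were 3.59, 3.76 and 2.97 RPKM at 0 h, 6.01, 6.52 and 5.91 RPKM at 4 h, 0.375, 0.653 and 2.09 RPKM at 8 h, 4.23, 3.73 and 2.78 RPKM at 12 h and 2.64, 2.97 and 2.16 RPKM at 24 h. The 4 h libraries were the highest of the 15 and the 8 h libraries the lowest, and neither time overlapped with 0 h. The log2 change at 8 h against 0 h was -1.21 (SE 0.279, adjusted p = 0.967), and the F-test gave an adjusted p of 0.393 (limma). The change at 8 h was -1.94 with a pseudocount of 0.1 and -2.08 with voom, and neither was called. Leaving out control 8 h replicate 3, which was the highest of its time, gave -1.55 at 8 h with an adjusted p of 0.0363 (limma).

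At 12 h the smallest p was that of c77965_g2, a gene that was either read at a few RPKM or not at all. It had 1.29, 1.63 and 2.57 RPKM at 12 h, from 28, 32 and 54 reads, and 0 RPKM in the 3 libraries at 0 h. It was also at 0 in all 4 h and 24 h control libraries, and at 1.69, 2.77 and 0 RPKM at 8 h. The difference of 12 h against 0 h was 1.47 on the log2(RPKM + 1) scale (SE 0.348, adjusted p = 0.577, limma), a size that depends on the pseudocount and is no bound on the fold. It was called without control 8 h replicate 3 (adjusted p = 0.0045) and with library quality weights (1.35, adjusted p = 0.0302, limma). Across all oxygen levels it had reads in 0 of the 18 libraries taken at 0 or 4 h and in 8 of the 9 taken at 12 h. The gene was picked for its control values at 0 and 12 h, which are among these libraries. These counts are therefore not independent of the choice. At 8 h it had reads in 2 of 3 control libraries, against 0 of 6 hypoxia libraries, and at 24 h in 0 of 3 control libraries, against 3 of 6 hypoxia libraries.

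The strongest candidate for a trend was c90605_g2. It had 0.76, 0.888 and 0.695 RPKM at 0 h, 0.847, 0.295 and 0 RPKM at 4 h, 2.48, 3.35 and 1.8 RPKM at 8 h, 2.19, 1.88 and 2.61 RPKM at 12 h and 4.1, 1.49 and 3.28 RPKM at 24 h. All 9 libraries from 8 h on lay above all 6 earlier ones, which is partly set by picking the gene for its trend. The trend was 1.31 per 24 h on the log2 scale (SE 0.27, adjusted p = 0.611, limma), and it was not called under any alternative run, among them a pseudocount of 0.1 (2.33) and voom (2.65). At 24 h moderate hypoxia had 0.404, 1.12 and 0.277 RPKM, against 2.29, 2.93 and 1.62 RPKM at 0 h of moderate hypoxia. Severe hypoxia had 0.168, 0.551 and 0.0545 RPKM at 24 h, against 0.753, 0.854 and 0.688 RPKM at 0 h of severe hypoxia. The 24 h change in control was higher than that in moderate hypoxia by 2.14 (SE 0.423, adjusted p = 0.00636, limma) and higher than that in severe hypoxia by 1.60 (SE 0.423, adjusted p = 0.00631). The gene was picked for its control course, so these differences are not independent of the choice.

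Weighting each control library by how closely it follows the others changed the outcome at 12 h alone among the 4 times. These quality weights, chosen after the data were seen, ran from 0.166 for control 4 h replicate 3 to 2.85 for control 12 h replicate 1. With them 42 genes were called at 12 h against 0 h, 22 higher and 20 lower, and 0 at 4, 8 and 24 h (limma). Genes named below were picked from these calls by size of change, so a gap between their times is partly set by that choice. The largest difference above 0 among those with a mean of at least 5 RPKM was that of c90667_g1, at 301, 296 and 266 RPKM at 12 h and 177, 125 and 145 RPKM at 0 h, with no overlap. Its weighted log2 change was 1.05 (SE 0.201, adjusted p = 0.0302), and its unweighted one was 0.96 (SE 0.313, adjusted p = 0.577, limma). The largest one below 0 was that of c90313_g4, at 1.34, 1.69 and 7.32 RPKM at 12 h and 4.39, 7.04 and 9.24 RPKM at 0 h, where the groups overlap through replicate 3 of 12 h. Its weighted log2 change was -1.54 (SE 0.305, adjusted p = 0.0351) and its unweighted one -1.03 (SE 0.417, adjusted p = 0.577, limma).

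**Figure D3:**
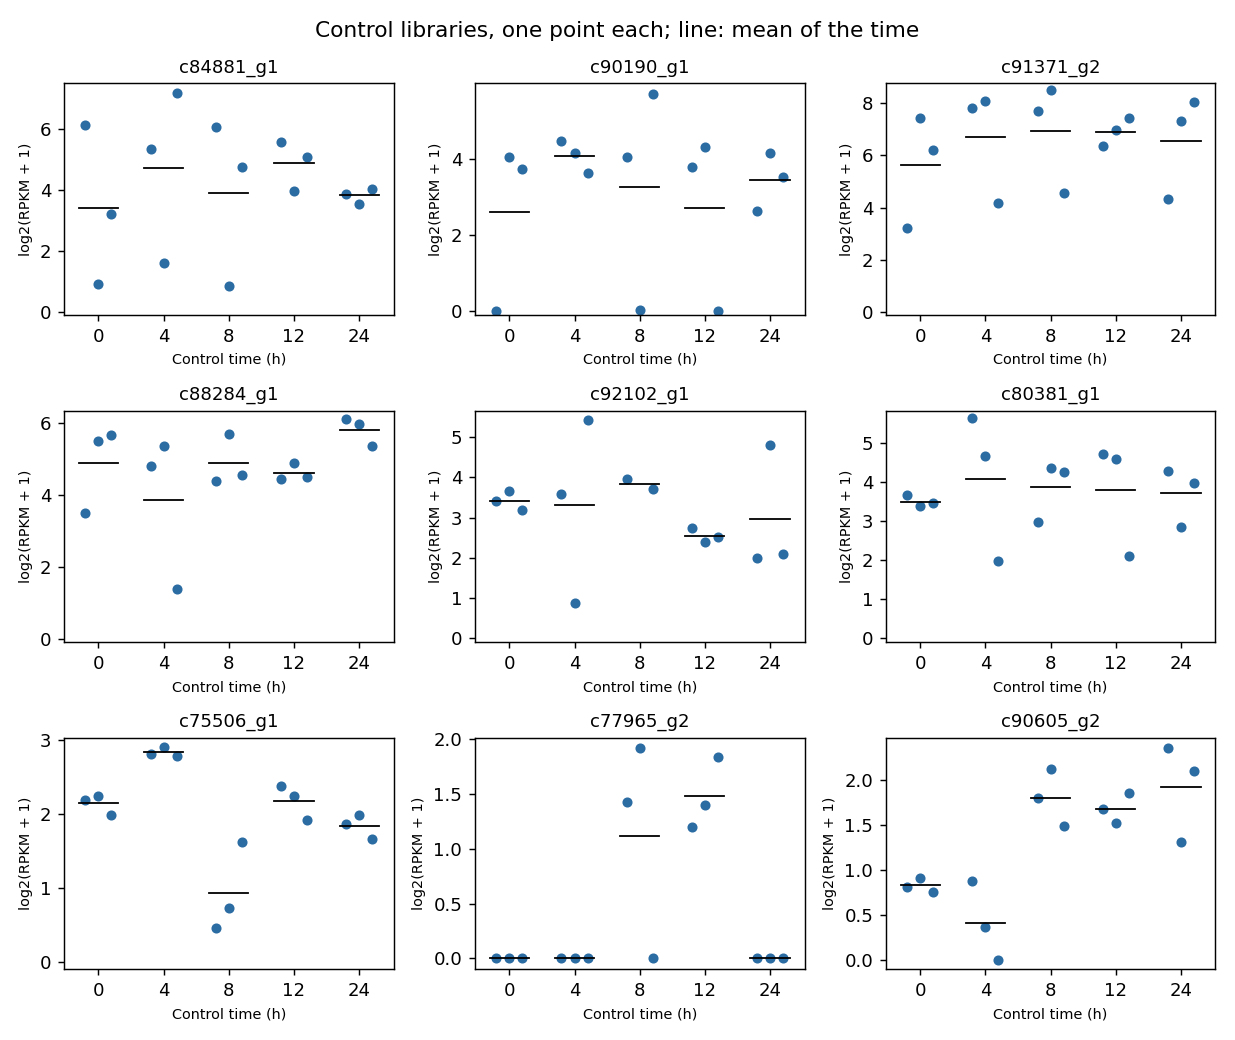
Level of 9 genes in each control library, as log2(RPKM + 1), by time in hours, with a line at the mean of each time. The upper 6 panels hold genes that differed between libraries of one time (c84881_g1 spans 0.819 to 142 RPKM). The lower 3 hold c75506_g1, c77965_g2 and c90605_g2, which had the smallest p at 8 h, at 12 h and for the trend. The gene with the smallest p at 4 h and 24 h, c87776_g6, is not drawn.

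Genes differed widely between control libraries of the same time. The within-time SD of a gene, pooled over the 5 control times on the log2(RPKM + 1) scale, had a median of 0.424 and ran from 0.0213 to 2.14. Counting error, taking 2 reads as 1 fragment, would give a median SD of 0.0801, and the median gene's SD was 5.09 times its own counting error. At 4 h, 52.8% of genes spanned at least 2-fold among the 3 libraries and 15.4% at least 4-fold. At 12 h these shares were 12.3% and 0.79%. Over genes, the median SD was 0.271 (0 h), 0.55 (4 h), 0.317 (8 h), 0.252 (12 h) and 0.346 (24 h), highest in the 4 h libraries.

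Whether control libraries spread more than hypoxia libraries was tested over the 5 times of each level, without pairing the levels by time. The median SD averaged 0.347 ± 0.119 in control and 0.334 ± 0.0645 in moderate hypoxia (SD, n = 5 each), a difference of 0.013 (2-sided exact permutation test, p = 0.881). Severe hypoxia averaged 0.297 ± 0.0309, and control minus severe was 0.0497 (2-sided exact permutation test, n = 5 each, p = 0.524). Neither difference was larger than the spread between times, where the smallest p this test can give is 0.00794. The sign of the difference from moderate hypoxia turned when control 4 h replicate 3 was left out (-0.0346), and also when any single one of 5 other control libraries was left out.

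A first axis held 46.6% of the within-time variance of the control libraries over the 2524 genes present in all of them, and a second held 12.6%. Control 4 h replicate 3 lay at -37.0 on the first axis and control 4 h replicate 2 at 27.7, with the other 13 control libraries between -15.0 and 16.3. Deviations within a time sum to about 0, so the place of the other 4 h libraries is partly set by that of replicate 3. A score of the hypoxia contrast was set beside this. Genes called between severe and moderate hypoxia over 4 to 24 h were taken from the 30 hypoxia libraries alone, and the score of a library was the average log2(RPKM + 1) of those higher in severe hypoxia minus the average of those lower in it. The score was -0.38 in control 4 h replicate 3 and -1.31 to -0.69 in the other 14 control libraries. Moderate hypoxia had -0.75 to -0.48 at 0 h, -1.15 to -0.16 at 4 h, -0.86 to -0.27 at 8 h, -1.16 to -0.45 at 12 h and 0.02 to 0.18 at 24 h. Severe hypoxia had -0.5 to -0.33 at 0 h, 0.06 to 0.42 at 4 h, 0.73 to 1.19 at 8 h, 1.2 to 1.51 at 12 h and 1.14 to 1.39 at 24 h. The hypoxia libraries of 4 to 24 h chose the score genes, so their own ranges are partly set by that choice. The score of control 4 h replicate 3 thus lay within the ranges of severe hypoxia at 0 h and of moderate hypoxia at 4 and 8 h. These 2 moderate ranges also held other control libraries, among them control 0 h replicate 1 (-0.69) and control 24 h replicate 2 (-0.76). The range of severe hypoxia at 0 h held no other control library. The part of control 4 h replicate 3 in the spread at 4 h was not tested.

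The 133 genes with the highest within-time SD, the top 5% of 2657, were taken as the most variable control genes. Their SDs chose them and are given as a description. They came from 125 components, the lowest had an SD of 0.853, and the first gene outside had 0.851. Of the 133, 105 (78.9%) had a mean of at least 5 RPKM, against 51.6% of all genes, on a scale that itself narrows the spread of low genes. Their lowest ratio of SD to counting error was 3.33. The largest deviation of 75 of the 133 fell in control 4 h replicate 3, as did that of 911 of all genes (34.3%). Without that library 91 of the 133 (68.4%) were again in the top 5%, and with a pseudocount of 0.1, which weighs low genes more, 54 (40.6%).

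In the hypoxia libraries, which had no part in their choice, the 133 genes also had a higher median SD than the other genes, though most of them were not in the top 5% there. The other genes are not matched for level, on which an SD in log2(RPKM + 1) depends. In moderate hypoxia the 133 had a median SD of 0.753, the other genes 0.4, and 129 of the 133 lay above the median of all genes. In severe hypoxia the medians were 0.519 and 0.35, and 112 of the 133 lay above the median of all. Of the 133, 60 (45.1%) were in the top 5% in moderate hypoxia and 26 (19.5%) in severe hypoxia. Across genes, the SD in control followed that in moderate hypoxia with a Spearman rho of 0.519 and that in severe hypoxia with 0.266, a description in which genes are not independent. Between hypoxia levels, 1445 of all 2660 genes (54.3%) were called in severe minus moderate hypoxia. Among the 133 most variable control genes 57.9% were called, close to that background. Their direction was split otherwise, with 28 higher (21.1%) and 49 lower (36.8%) in severe than in moderate hypoxia, beside 32.3% and 22.0% of all genes, and this difference in split was not tested.

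**Figure D4:**
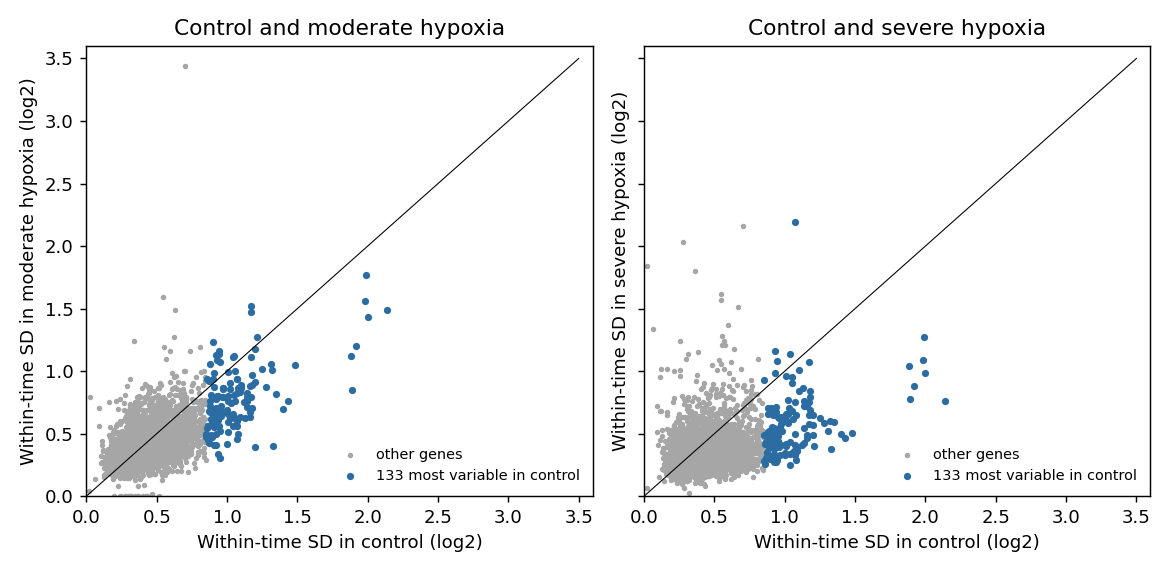
Within-time SD of each gene in control (horizontal) and in moderate or severe hypoxia (vertical), on the log2(RPKM + 1) scale, with the line of equal SD. The 133 most variable control genes (blue) have a median SD of 0.753 in moderate and 0.519 in severe hypoxia, against 0.4 and 0.35 for the other genes (grey).

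Of the 133 genes, 96 fell into 9 groups of 5 or more genes whose deviations from the time means moved together (joined at an average r of 0.8), and 37 into none. The high r in control was therefore fixed by the choice of the groups, and a lower r in hypoxia is no test of a difference. Some groups held several genes of 1 assembly component. The groups led by c88284_g1, c84881_g1, c92102_g1, c92037_g2 and c90190_g1 had 29, 19, 13, 6 and 5 genes. These came from 26, 17, 12, 5 and 4 components. The widest spread of all was that of c84881_g1 (SD 2.14), in a group of 19 genes. It had 68.0, 0.881 and 8.33 RPKM at 0 h, 39.5, 2.02 and 142 RPKM at 4 h, 65.1, 0.819 and 25.9 RPKM at 8 h, 45.9, 14.6 and 32.3 RPKM at 12 h and 13.6, 10.7 and 15.4 RPKM at 24 h. Replicate 2 was the lowest of its time at each of the 5 times, and the values at 24 h lay close together. In hypoxia c84881_g1 ran from 0.278 to 46.3 RPKM (median 4.95) in moderate and from 0 to 8.79 RPKM (median 1.3) in severe libraries, against 0.819 to 142 RPKM (median 15.4) in control.

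Next to c84881_g1 stood c84317_g3 (SD 2.0), with 43.4, 3.44 and 138 RPKM at 4 h and 74.8, 1.21 and 35.8 RPKM at 8 h. The genes c90070_g7 and c88827_g1, picked after their values were seen, followed the same course, with 119 and 137 RPKM in control 4 h replicate 3, and 1.12 and 1.99 RPKM in control 8 h replicate 2. These 4 genes come from different components. Over the 15 control libraries their deviations were correlated at r of 0.982 to 0.998, over moderate hypoxia libraries at 0.956 to 0.994 and over severe hypoxia libraries at 0.891 to 0.981, as a description. The other 15 genes of the group were tied less closely, and the median r of all 19 was 0.839 in control, 0.597 in moderate and 0.124 in severe hypoxia.

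A further group was led by a gene read either at several RPKM or hardly at all. The gene c90190_g1 (SD 1.99) was at 0.0106 RPKM in control 0 h replicate 1, 0.0222 RPKM in control 8 h replicate 2 and 0.0111 RPKM in control 12 h replicate 3. In the other 12 control libraries it ran from 5.17 to 50.4 RPKM, with no value between. It was at 0 in 4 of 15 moderate hypoxia libraries and at 9.57 to 41.4 RPKM in the others, and under 1 RPKM in 4 of 15 severe hypoxia libraries and at 3.15 to 9.86 RPKM in the others. The low moderate libraries were replicates 1 and 3 of 0 h and replicates 2 and 3 of 4 h, and the low severe libraries were 1 each of 0, 8, 12 and 24 h. Its partner c86537_g5, chosen after its values were seen, was under 1 RPKM in the same number of control libraries, with 0, 0.0885 and 0.0294 RPKM in these 3, and its deviations followed those of c90190_g1 at r of 0.991. The group held 5 genes from 4 components, with a median r of 0.956 in control, 0.801 in moderate and 0.782 in severe hypoxia. Without control 4 h replicate 3 its median r was 0.964. The groups were not formed anew without that library, so such an r is partly set by their choice. Without that library the median r of the other groups ran from 0.692 (led by c92037_g2) to 0.885 (led by c80381_g1).

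The abundant gene c91371_g2 led a group of 5. It had 8.25, 170 and 72.3 RPKM at 0 h, 224, 270 and 17.2 RPKM at 4 h, 203, 354 and 22.8 RPKM at 8 h, 80.2, 122 and 169 RPKM at 12 h and 18.9, 157 and 263 RPKM at 24 h. A single low library appeared at 0, 4, 8 and 24 h, at 8.25 to 22.8 RPKM, and none at 12 h. The second gene of this group, c87190_g1, picked after its values were seen, had 3.87, 37.1 and 37.9 RPKM at 0 h and 40.3, 50.9 and 2.97 RPKM at 4 h. The median r of the group was 0.922 in control, 0.658 in moderate hypoxia and 0.000408 in severe hypoxia.

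The largest group, 29 genes led by c88284_g1, rested mostly on one time. That gene had 26.6, 39.7 and 1.62 RPKM at 4 h and 10.2, 44.3 and 49.4 RPKM at 0 h. In 25 of the 29 genes the largest deviation was in control 4 h replicate 3. This was so in 75 of the 133 most variable genes and in 34.3% of all genes. The group was joined by these same deviations, so a shared library is partly set by that choice. In control 4 h replicate 3 the group lay 2.06 below its time mean on average (log2), with control 4 h replicate 2 at 1.48 above. Without control 4 h replicate 3 the SD of c88284_g1 was 0.709, against 1.16 with it, and the median r of the group was 0.724, against 0.888. The groups led by c92037_g2 (6 genes) and c88374_g3 (5 genes) were lowest in the same library, at -2.25 and -1.72. In that library c92037_g2 had 0.333 RPKM, against 6.61 to 43.7 RPKM in the other control libraries that give it, and c88374_g3 had 0.13 RPKM, against 0.503 to 14.9 RPKM. The value of c92037_g2 is missing for control 8 h replicate 2, and its SD without control 4 h replicate 3 was 0.694, against 1.33.

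In the opposite direction, the 5 genes led by c86982_g16 averaged 1.86 above the time mean in control 4 h replicate 3 and 1.44 below it in control 24 h replicate 1. c86982_g16 itself had 6.14, 4.16 and 78.9 RPKM at 4 h and 0.67, 11.7 and 6.16 RPKM at 24 h. Over all 5 times its control median was 6.16 RPKM, against 32.5 RPKM in moderate and 33.3 RPKM in severe hypoxia. This difference in level was not tested. The 13 genes led by c92102_g1 were high in control 4 h replicate 3 (42.2 RPKM for c92102_g1) and in control 24 h replicate 2 (26.8 RPKM), where the other libraries of these times had 11.1 and 0.841 RPKM at 4 h and 2.96 and 3.27 RPKM at 24 h. The value of c92102_g1 is missing for control 8 h replicate 2. The 9 genes led by c80381_g1 were low in control 4 h replicate 3 (2.91 RPKM) and in control 12 h replicate 3 (3.3 RPKM), against 6.24 to 48.7 RPKM in the other control libraries. The median r of this group was 0.946 in control, 0.815 in moderate and 0.795 in severe hypoxia.

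The calls between severe and moderate hypoxia differed in direction between some groups (limma, beside 32.3% of all genes higher and 22.0% lower). Genes of a group were joined by correlation and are not independent, and the differences between groups were not tested. In the groups of c88284_g1, c91371_g2, c86982_g16, c92037_g2 and c88374_g3 the share called was below the 54.3% of all genes. Of the 9 genes led by c80381_g1, 0 were called higher and 8 lower, and of the 13 led by c92102_g1, 8 were higher and 2 lower. The leader c92102_g1 was itself among the lower ones, with a log2 difference of severe minus moderate hypoxia of -1.47 (adjusted p = 0.00042, limma). The 29 genes led by c88284_g1 had 2 higher and 13 lower, and the 19 led by c84881_g1 had 3 higher and 10 lower. In the group of c90190_g1 0 were higher and 4 lower, and in that of c91371_g2 0 were higher and 2 lower. The group of c86982_g16 had 2 higher and 0 lower, that of c92037_g2 had 1 higher and 0 lower, and that of c88374_g3 had 1 higher and 1 lower.

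**Figure D5:**
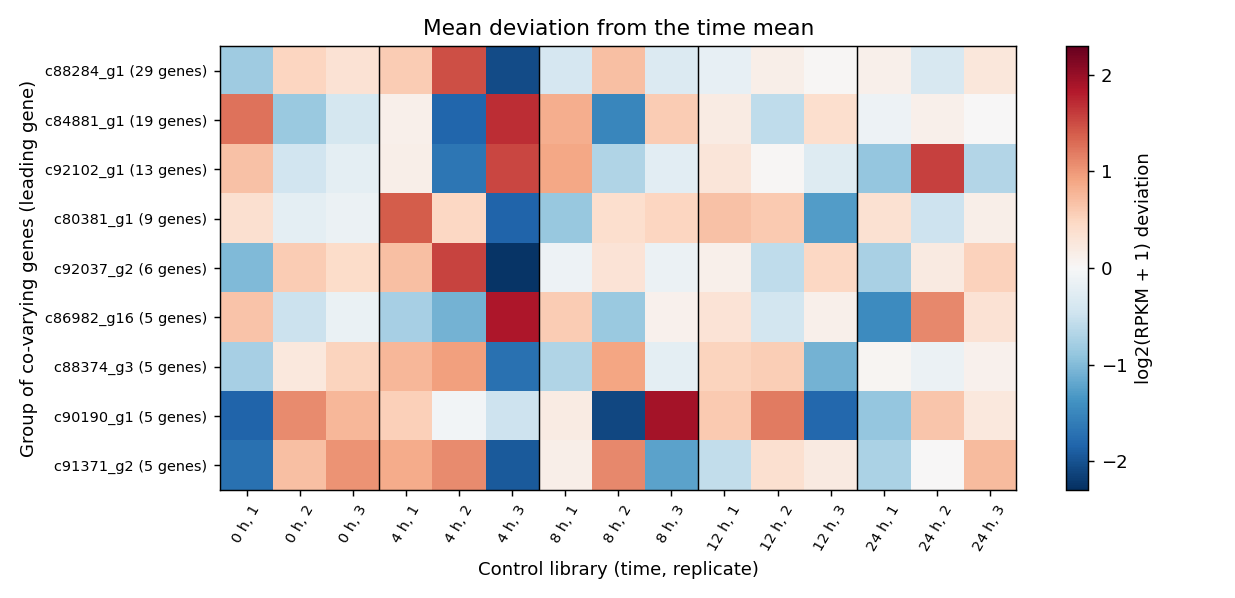
Mean deviation from the time mean, in log2(RPKM + 1), of the 9 groups of co-varying genes (rows, by leading gene) in the 15 control libraries (columns). Control 4 h replicate 3 holds the lowest or highest value of most rows, and the c90190_g1 group is low in 0 h replicate 1, 8 h replicate 2 and 12 h replicate 3.

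In control 24 h replicate 1 the departing genes lay mostly below the other libraries of the time. The largest departures at a mean of at least 5 RPKM, listed after the values were seen, were c91410_g2 with 1.54 RPKM there, against 16.6 and 14.8 RPKM in the other 24 h libraries, and c91371_g2 as above. Above both others stood c86594_g4 with 726 RPKM, against 185 and 265 RPKM. Over the other 14 control libraries c86594_g4 ran from 185 to 680 RPKM and c91410_g2 from 7.15 to 41.4 RPKM. The 18.9 RPKM of c91371_g2 lay within its range of 8.25 to 354 RPKM in those libraries. In control 24 h replicate 1, 17 genes were at 0 that had reads in all other control libraries.

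The steadiest genes of at least 5 RPKM were c78720_g1 and c86592_g1. c78720_g1 had a within-time SD of 0.114 and ran from 4.6 to 6.98 RPKM over the 15 control libraries. Its SD was 0.407 in moderate and 0.449 in severe hypoxia, and the log2 difference of severe minus moderate hypoxia was -0.81 (adjusted p = 0.000474, limma). c86592_g1 had a within-time SD of 0.126, with 6.35 to 9.91 RPKM in control, and was higher in severe than in moderate hypoxia by 0.47 (adjusted p = 0.0034, limma). Both genes were chosen for a small control SD, so that SD, and a larger one in hypoxia, say nothing of their own. The hypoxia contrast came from other libraries, but 54.3% of all genes were called in it.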

How the data were processed

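Per the labels' protocols, liver RNA went into TruSeq libraries, which gave 125-bp paired-end reads and a Trinity assembly. The deposited values, one table per library, were read as RPKM from the values themselves, since the file headers name no unit. Aligner, counter and the rule for listing genes: not given in the sources used here. With 1 length per gene and 1 total per library, each of the 117443 values above 0 came out as a whole number of reads (tolerance 0.0001). The members and gene lists were chosen with earlier results of these data known.

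limma 3.58.1 in R 4.3.3 was fitted to log2(RPKM + 1), with moderated variances and an intensity trend, to the 15 control libraries (10 residual and 4.51 prior degrees of freedom) or to all 45 for differences between levels. On this scale changes of low genes come out too small. Genes at 0 in all libraries fitted were left out, and missing values stayed missing. P-values were adjusted over all genes tested, per comparison. The steps were tested on simulated data.

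Genes were named by rule: where none was called, the gene with the smallest p; for the F-test the 2 smallest; the 2 largest and 2 smallest within-time SDs at a mean of at least 5 RPKM, and the leader of each co-varying group. Others are marked as chosen after their values were seen. Groups joined genes by average linkage at r of 0.8 with at least 5 genes. The F-test's 2 genes are c75506_g1 and c90605_g2.

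The labels do not say that a replicate number marks a shared tank or fish. Deviations of same-numbered libraries were correlated at r of -0.367 to 0.667, over 0.1 in 15 of 30 pairs and not in every one, so replicate numbers were not treated as pairs. No pair of libraries was a duplicate (lowest chi-square per gene 49.3 over 105 pairs). Alternatives covered the pseudocount, a filter, quantile scaling, voom, a replicate block, the libraries fitted, each library left out and, added after seeing the data, quality weights, leaving out the 4 h libraries and leaving out hypoxia libraries.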

Additional observations from a re-analysis of the deposited data

Results flagged for a closer look

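The 24 h change differed between control and severe hypoxia by a test of the difference for 898 genes (33.8%; limma, all 45 libraries). Between control and moderate hypoxia it differed for 107 genes (4.02%), a count that changed widely when one library was left out. c90605_g2 was among both sets, with a 24 h change in control that was higher by 1.60 (log2) than in severe hypoxia and by 2.14 than in moderate hypoxia. It was picked for its control course, so these differences are not independent of the choice. No group had the 4 libraries needed to look for a single outlying value.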

How the results depend on the processing

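The counts of 0 genes for 24 h against 0 h and for the linear trend held under each alternative run. Quality weights gave 42 calls at 12 h and 4 in the F-test, and the fit of all 45 libraries gave 2 in the F-test. Leaving out one library at a time gave 0 to 1 calls at 4 h (1 without control 0 h replicate 2), 0 to 2 at 8 h (2 without control 8 h replicate 3), 0 to 1 at 12 h (1 without control 8 h replicate 3) and 0 to 2 in the F-test (1 when control 12 h replicate 3 was dropped, 2 when control 8 h replicate 3 was). The difference in 24 h change between control and severe hypoxia ranged from 600 to 1023 calls with one library left out and was 1400 with quality weights. Between control and moderate hypoxia it ranged from 11 to 223 with one library left out, was 71 with voom and 636 with quality weights. The single libraries that moved it by over 1.5 times were control 0 h replicates 1 (25) and 3 (39), control 24 h replicates 1 (11), 2 (181) and 3 (47), control 4 h replicate 3 (223), moderate 0 h replicates 1 (47) and 2 (54) and moderate 24 h replicates 1 (45), 2 (18) and 3 (39). The cause was not tested. The replicate block gave 0 calls in all 6 control tests and 907 and 114 for the differences from severe and moderate hypoxia, so it changed no call by over 1.5 times, and 8 of 15 libraries correlated best with their own number, a hint from the data and not the design. Control minus moderate in median SD ranged from -0.0346 to 0.0467 with one library left out, and was negative without control 0 h replicate 1 (-0.00919), 4 h replicate 2 (-0.00336), 4 h replicate 3 (-0.0346), 8 h replicate 2 (-0.0111), 12 h replicate 3 (-0.00684) or 24 h replicate 1 (-0.0145). Control minus severe ranged from 0.00217 to 0.0736. The median within-time SD of 0.424 was 0.364 without control 4 h replicate 3 and 0.561 with a pseudocount of 0.1.

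With 3 libraries per time, the replicates limit what could be called, and the median interval of 0.725 on either side allows a change of over 1.5 times in the median gene. Most listed genes were read deeply enough for counting error to stay below the spread between libraries (median SD 0.0801, against 0.424).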
